A study of Homo sapiens with 4 samples.

Results

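The loci described here are those of 40 genes that mark or specify the basal and luminal cells of the prostate epithelium, out of 20163 protein-coding genes on the 24 assembled chromosomes. A gene's locus was its body in the GENCODE annotation of GRCh37 (hg19) plus 10 kb on either side, and every MIR205HG-ChIRP peak that overlapped this window was counted for the gene. By known roles, 21 were taken as basal (KRT5, KRT14, KRT15, KRT17, KRT6A, TP63, ITGA6, ITGB4, LAMA3, LAMB3, COL17A1, DST, CDH3, TRIM29, S100A2, SFN, DSG3, DSC3, PERP, NGFR and EGFR), 10 as luminal (KRT8, KRT18, KRT19, FOXA1, HOXB13, KLK2, KLK3, TMPRSS2, GATA3 and ELF3) and 9 as other epithelial regulators (CDH1, NOTCH1, JAG1, JAG2, DLL1, DLK2, SOX2, ZEB1 and ZEB2). The 40 windows merged into 36, because those of KRT8 and KRT18, KRT15 and KRT19, KLK2 and KLK3, and CDH3 and CDH1 overlap, and they covered 3306 kb.

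The study asked where the long noncoding RNA MIR205HG, also called LEADR, sits on chromatin. In ChIRP, the RNA is caught on beads by tagged probes complementary to it after formaldehyde fixation, and the DNA that comes along is sequenced. All libraries came from RWPE-1 cells, with no drug or genetic change in the labels. This is a single immortalized line of normal human prostate epithelium kept as a model of basal cells, grown in medium with epidermal growth factor and pituitary extract. The MIR205HG probe pool was used in 3 independent experiments (replicates 1, 2 and 3), and the lacZ probe pool, which has no target in human cells, gave 1 library that served as control for all 3. Peak lists hold no expression level, so the basal label of the cells could not be checked here against KRT5, KRT14 or TP63 RNA.

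The prostate gland is lined by a basal layer, anchored to the basement membrane through hemidesmosomes and held together by desmosomes, and by a luminal layer that secretes the prostatic fluid under the control of the androgen receptor. Basal cells are known for the transcription factor TP63 and the keratins KRT5 and KRT14, luminal cells for the keratins KRT8 and KRT18, the transcription factors FOXA1 and HOXB13 and the secreted kallikreins KLK2 and KLK3. MIR205HG carries a stretch of Alu, the most abundant short repeat of the human genome, near its start.

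The following windows of 201 bases each lie around the summit of 1 peak and are read from the plus strand of GRCh37. They show the site of highest fold enrichment at these loci, inside EGFR, and the only keratin site, downstream of KRT17, its summit inside KRT16. Neither holds an alignment to the Alu part of MIR205HG, bases 180 to 393 of the GENCODE transcript ENST00000429156.6_2, so no base is in capitals.
EGFR intron 1, highest fold enrichment (chr7:55105436-55105636, plus strand): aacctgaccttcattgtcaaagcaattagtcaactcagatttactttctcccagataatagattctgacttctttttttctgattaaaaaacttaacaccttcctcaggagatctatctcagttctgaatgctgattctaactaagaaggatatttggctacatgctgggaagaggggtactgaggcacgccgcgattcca
KRT17 downstream (chr17:39769924-39770124, plus strand): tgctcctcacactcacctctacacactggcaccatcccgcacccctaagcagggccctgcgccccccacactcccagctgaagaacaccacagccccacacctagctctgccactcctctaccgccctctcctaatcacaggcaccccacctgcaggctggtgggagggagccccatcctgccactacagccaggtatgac

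Most basal and luminal loci held no peak, as is the case for most genes. A peak of any replicate lay at 7 of the 40 genes (17.5%, exact 95% interval 7.34 to 32.8%), beside 28.0% of all protein-coding genes and 28.4% of genes of like length and chromosome. In the other 33 genes no replicate had a peak in the gene or within 10 kb, and this included TP63, the KRT5 and KRT14 pair, the hemidesmosome integrin chains ITGA6 and ITGB4, and every luminal gene other than TMPRSS2. Peaks supported by at least 2 replicates were found at 4 genes only, namely EGFR, the receptor of epidermal growth factor, S100A2, a calcium-binding protein of basal epithelia, KRT17, a keratin of basal and stressed epithelia, and CDH1, which encodes E-cadherin. The remaining 3 genes with peaks, CDH3 (P-cadherin), LAMA3 (a laminin chain of the basement membrane) and TMPRSS2 (an androgen-responsive serine protease of luminal cells), had peaks that no other replicate overlapped.

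By replicate, 0 of the 40 genes had a peak in replicate 1, 5 in replicate 2 and 7 in replicate 3. Over all protein-coding genes, counted the same way, the shares with a peak were 1.84% in replicate 1, 18.6% in replicate 2 and 26.5% in replicate 3. The count of 0 of 40 in replicate 1 allows a share of up to 7.50%, which lies above the 1.84% of all genes, so a difference from the rest of the genome was not detectable there. In replicate 2 the share of the 40 genes was 12.5% (exact Clopper-Pearson 95% interval 4.19 to 26.8%), and in replicate 3 it was 17.5% (7.34 to 32.8%). Both intervals hold the share of all genes. These intervals and limits cover counting error only and take the genes as independent, although neighbours in a cluster share sequence.

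**Figure D1:**
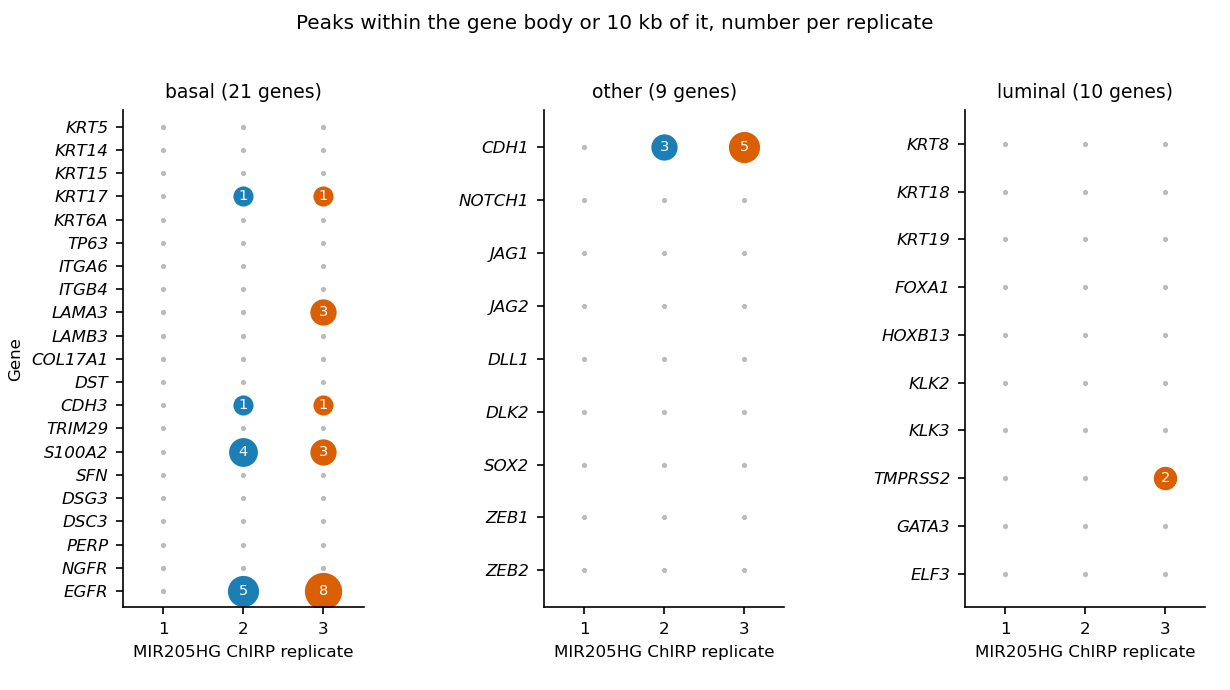
Number of deposited peaks of each MIR205HG-ChIRP replicate (x axis) within the body of each gene (y axis) or 10 kb of it, for the 21 basal, 9 other and 10 luminal genes. A grey dot stands for 0 peaks and a filled circle carries the number. Replicate 1 has no circle, and the circles of replicates 2 and 3 lie on 7 genes, with EGFR carrying the most (5 and 8).

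A site was defined as the merged stretch of peaks that overlapped by at least 1 bp, and was called supported where it held peaks of at least 2 replicates. Supported sites were found at 4 of 40 genes (10.0%, 95% interval 2.79 to 23.7%), against 16.0% of all protein-coding genes. Since longer genes present more sequence, each member was also set beside all other protein-coding genes on its own chromosome whose length lay within 2 times of its own. Averaged over the members, 16.2% of these like genes held a supported site, which corresponds to 6.48 of 40 genes. For replicate 2 alone the like genes gave 18.6% (7.44 genes), and for replicate 3 alone 26.9% (10.8 genes). In each of these counts the 40 genes lay below their like genes, and the share of the like genes lay inside the interval of the 40. The 40 genes had a median length of 28832 bp, close to the 27219 bp of all protein-coding genes.

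Counted per length of DNA, the loci lay near the rest of the gene windows. Their 3306 kb held 24 sites made of 37 peaks, of which 12 were supported, or 3.63 supported sites per Mb, against 3.21 per Mb over the windows of all protein-coding genes. The sites were clustered, with 5 of the 12 in EGFR, 3 in CDH1, 3 upstream of S100A2 and 1 downstream of KRT17. The density rested on EGFR most, and without it the other loci held 7 supported sites, or 2.26 per Mb. All 12 supported sites joined replicates 2 and 3, and none was found in replicate 1. Among all 8020 supported sites of the genome, 91.6% joined only replicates 2 and 3 and 8.09% held peaks of all 3.

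Of the 21 basal genes, 4 had a peak in replicate 2, 5 in replicate 3 and 3 a supported site (14.3%, 95% interval 3.05 to 36.3%), beside 17.2% of their like genes. Of the 10 luminal genes, 0 had a peak in replicate 2, 1 had peaks in replicate 3 and 0 had a supported site. A count of 0 of 10 allows a share of up to 30.0%, and the like genes of the luminal members stood at 11.8%, or 1.18 genes of 10. The luminal loci were also smaller, with a median gene length of 7874 bp and 362 kb of window in all, against 36492 bp and 2177 kb for the basal genes. With these numbers, no difference between the basal and the luminal genes could be told, and none was tested. Of the 9 other genes, only CDH1 had peaks, in replicates 2 and 3, and the like genes of these 9 averaged 18.8% with a supported site.

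**Figure D2:**
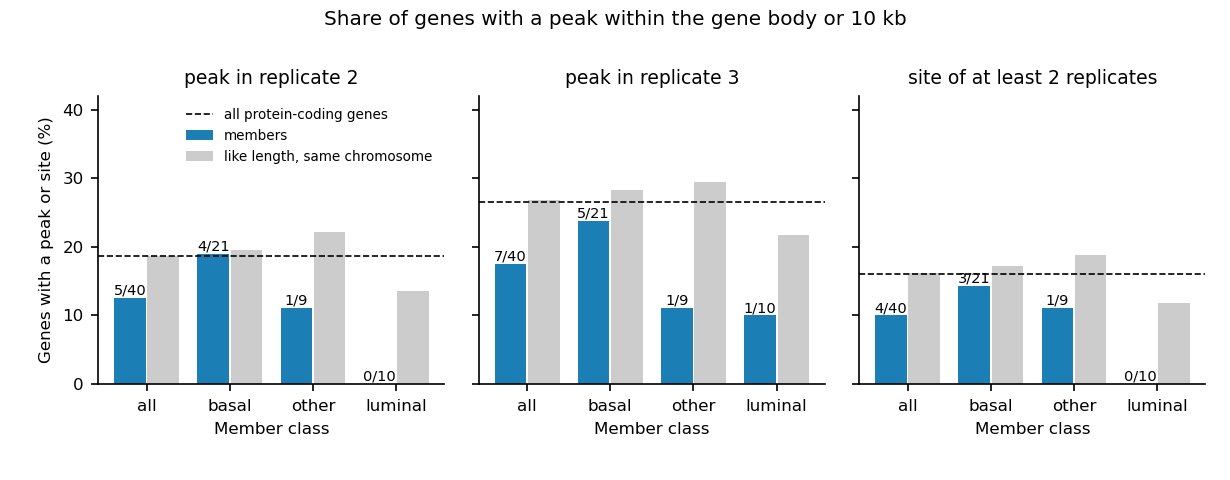
Percent of genes with a peak of replicate 2, a peak of replicate 3 or a site of at least 2 replicates within the gene or 10 kb, for the 40 genes and their classes (blue, with the count over each bar), for protein-coding genes of like length on the same chromosome (grey, mean over members) and for all protein-coding genes (dashed line). The blue bars lie below the grey ones in every class, by the least for basal genes in replicate 2 (19.0% against 19.5%), and no luminal gene has a supported site.

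EGFR (ENSG00000146648.21_13, chr7:55086710-55279321, plus strand) held the most peaks of the 40 genes. Replicate 1 had 0 peaks in it, replicate 2 had 5 and replicate 3 had 8. They fell into 2 stretches of the gene, 4 sites in intron 1 between 16.4 and 19.7 kb from the start of the canonical transcript, and 4 sites in introns 7 and 15 between 135.1 and 148.3 kb from it. No peak lay at the promoter of the canonical transcript. The intron 15 sites lay 2243 and 3581 bp downstream of another annotated EGFR TSS. Of the protein-coding genes on chromosome 7 of like length, 35.1% of 171 had at least 1 supported site, beside 16.0% of all protein-coding genes. How many sites each of these genes held was not compared with EGFR.

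The intron 1 site printed above (chr7:55105212-55105742) had the highest mean fold enrichment of the 12 sites. Fold enrichment here is the depth-scaled number of MIR205HG-probe reads at the summit over the lacZ level set for that place. With 1 added to both, the fold enrichment is lower than the plain ratio. It came to 7.13 in replicate 2 and 18.88 in replicate 3, a mean of 13.01 ± 8.31 (SD, n = 2 replicates). Replicate 3 was far above replicate 2 here, and the replicates placed their summits 2 bp apart. The reads at the summit, solved from the deposited fold enrichment and p-value, were 34 in replicate 3 and 17 in replicate 2, where 19 reads solved the values as well. The MACS2 q-values were 3.13e-08 and 1.28e-37.

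The site over EGFR exon 7, with its summit in intron 7 (chr7:55221659-55222113), had the next highest mean in the gene. Replicate 2 gave 6.60 and replicate 3 gave 11.45 (9.03 ± 3.44, SD, n = 2), again with replicate 3 above replicate 2. The Alu site of intron 1 (chr7:55102938-55103283) had 6.60 and 5.98 (6.29 ± 0.44). Unlike the former pair, these replicates lay close to each other. The intron 15 sites were at chr7:55234875-55235200, with 5.75 and 5.45 (5.60 ± 0.22), and at chr7:55233503-55233901, with 3.79 and 4.77 (4.28 ± 0.70). The second of them held an Alu alignment of 117 bp. The other 3 sites of EGFR were seen by replicate 3 alone, with fold enrichments of 6.48, 4.98 and 3.98 from 12, 14 and 15 reads.

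S100A2 (ENSG00000196754.13_10, chr1:153533584-153540366, minus strand) was the only one of the 40 genes with a supported site in the proximal region, meaning the 1500 bp before and the 500 bp after any of its annotated TSS. This was 2.50% of the genes, beside 2.65% of all protein-coding genes and 2.92% of the like genes. For the site at chr1:153541389-153541653, replicate 2 gave a fold enrichment of 11.39 and replicate 3 one of 7.55 (9.47 ± 2.71, SD, n = 2), from 28 and 13 reads. Here replicate 2 was the higher. Its summit lay 1145 bp upstream of the most upstream S100A2 TSS but 3191 bp upstream of the TSS of the canonical transcript, so that with canonical transcripts alone 0 of the 40 genes had a proximal supported site. Its longest alignment to the Alu part of MIR205HG was 76 bp, under the length that was counted.

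Further upstream of S100A2 lay a pair of supported sites whose highest summits lay in DNA that no annotated gene covers. The wider (chr1:153542158-153544300), at 2143 bp the widest site of the 40 loci, was covered by a single peak of replicate 3 with a fold enrichment of 11.20 from 44 reads, and by 2 peaks of replicate 2 with 10.61 and 8.68 from 43 and 47 reads. Taking the higher peak of replicate 2, the mean was 10.91 ± 0.42 (SD, n = 2), and the replicates hardly differed. This site held 3 Alu alignments and the longest tract of any supported site at these loci, 46 pyrimidines. The outer site (chr1:153544634-153544979) had 7.74 and 7.97 (7.86 ± 0.16) with 1 Alu alignment. In the genes of like length on chromosome 1, 11.5% of 504 had any supported site, and all 3 at S100A2 lay outside its body.

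CDH1 (ENSG00000039068.20_12, chr16:68771195-68869440, plus strand), the adhesion molecule of both epithelial layers, had 0 peaks in replicate 1, 3 in replicate 2 and 5 in replicate 3. All of them lay in intron 13 of 15, between 86.9 and 89.8 kb from the canonical TSS. The site summits lay 958 to 3850 bp downstream of another annotated CDH1 TSS. All 3 supported sites held an Alu alignment of 117 bp. The first (chr16:68857915-68858288) was enriched 5.11-fold in replicate 2 and 9.30-fold in replicate 3 (7.21 ± 2.96, SD, n = 2), from 20 and 27 reads. The next (chr16:68860875-68861233) had 4.93 and 3.49 (4.21 ± 1.02), and the weakest of all 12 supported sites (chr16:68860275-68860556) had 3.11 and 2.77 (2.94 ± 0.25). At a fold enrichment of at least 5 in each replicate, 1 of the 3 sites remained. At a MACS2 p-value of at most 1e-05, the cut-off that the paper states, 2 remained. The CDH1 window held 0.989 Alu alignments per kb, against 0.270 over the 40 loci together, and 27.7% of 195 like genes on chromosome 16 had a supported site.

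KRT17 (ENSG00000128422.18_13, chr17:39775694-39781094, minus strand) had 1 site, 5.5 kb beyond its 3′ end (chr17:39769481-39770216). Replicate 2 gave 5.97-fold and replicate 3 gave 6.48-fold enrichment there (6.22 ± 0.36, SD, n = 2), from 14 and 12 reads. For replicate 2, 18 reads solved the values as well. The replicates lay close in height, their summits lay 255 bp apart, and with an overlap of at least 50% of both peaks required, KRT17 had 0 supported sites. The same site lies 873 bp upstream of a TSS of KRT16, the neighbouring keratin of stressed epithelia, and therefore counts for both genes. Its replicate 3 summit lies inside the annotated KRT16 gene, in an intron. No other keratin of the list had a peak. KRT14, in the same cluster, lay 26.3 kb from the nearest supported site.

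**Figure D3:**
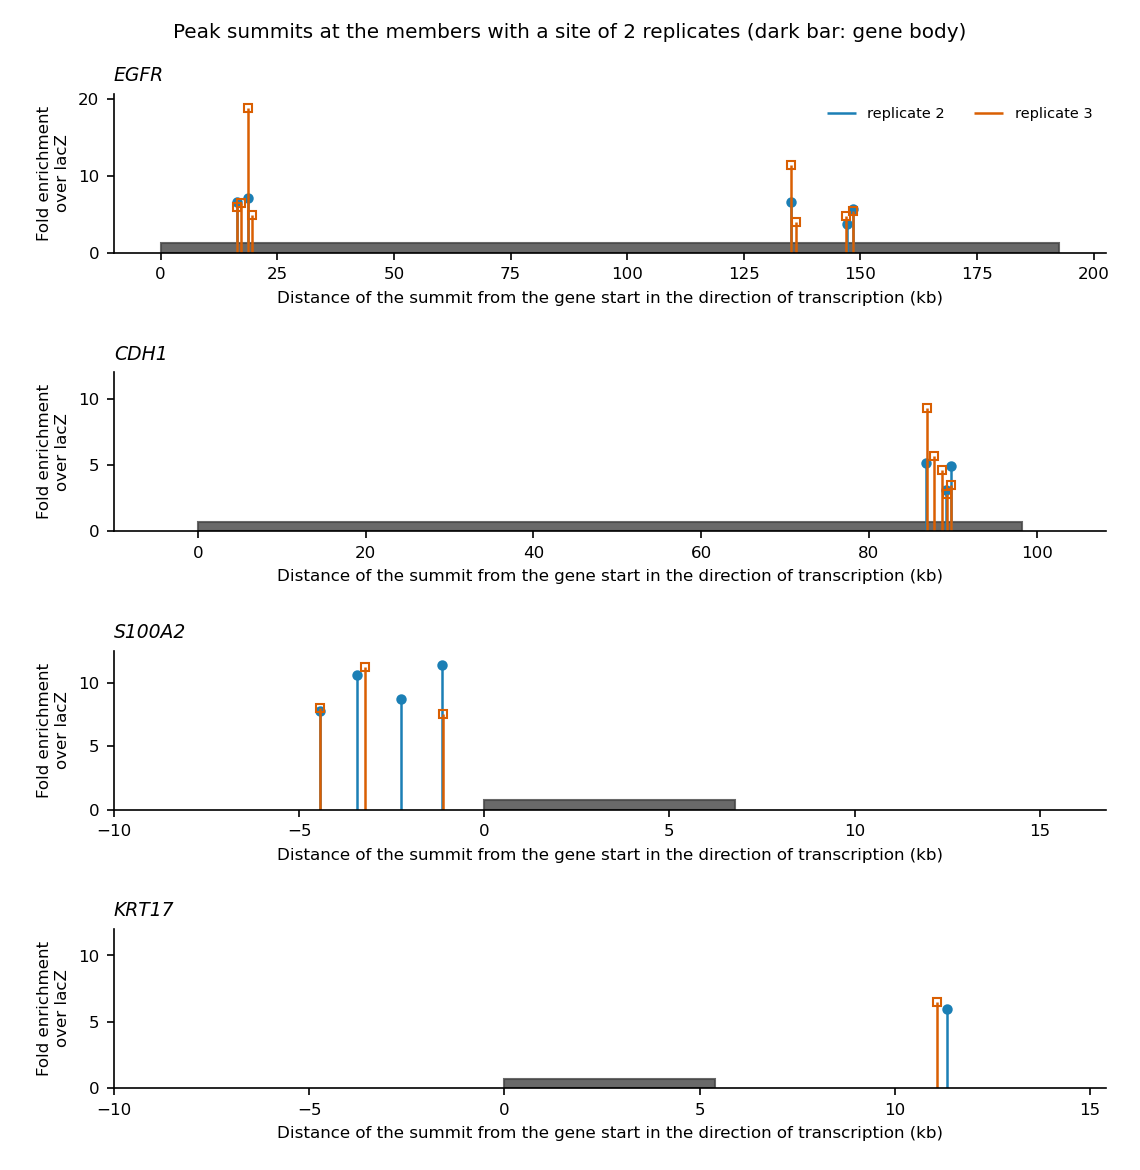
Deposited fold enrichment over lacZ (y axis) of each peak of replicate 2 (blue circles) and replicate 3 (orange squares) against the distance of its summit from the gene start in the direction of transcription in kb (x axis), for the 4 genes with a supported site. The dark bar is the gene body. The summits of EGFR and CDH1 lie deep inside the body, those of S100A2 upstream of it and those of KRT17 beyond its end, and the highest is that of replicate 3 in EGFR at 18.88.

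CDH3, LAMA3 and TMPRSS2 had peaks of single replicates only. At CDH3, replicate 2 had a peak of 6.33-fold from 17 reads (chr16:68741902-68742143) and replicate 3 a peak of 5.64-fold from 16 reads (chr16:68742428-68742656), in an intron of a transcript that runs past the end of the canonical one. The peaks did not overlap, and the second held a tract of 54 pyrimidines. A window of 25 kb would have added 1 supported site, which lay 17.9 kb from CDH3. At LAMA3, replicate 3 had 3 peaks in intron 62 of 74, with fold enrichments of 3.98, 4.32 and 3.84 from 15, 25 and 32 reads. At TMPRSS2, replicate 3 had a peak of 6.48 from 11 reads over exon 9 (chr21:42845258-42845509) and a peak of 8.09 from 14 reads in intron 1. The latter lay 3.3 kb from the canonical TSS and 1740 bp from the nearest annotated TSS of the gene. These were the only peaks at a luminal gene, and replicate 2 had 0 there.

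The heights of the 12 supported sites lay within those of the genome. In replicate 2 their fold enrichment had a median of 6.29 (lowest 3.11, highest 11.4) beside 6.47 over all supported sites, and in replicate 3 a median of 7.02 (2.77 to 18.9) beside 7.97. Replicate 3 was the higher at 7 of the 12. Their summits rested on 14 to 47 reads in replicate 2 and 10 to 44 reads in replicate 3, and the 12 sites of a single replicate on 11 to 36.

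**Figure D4:**
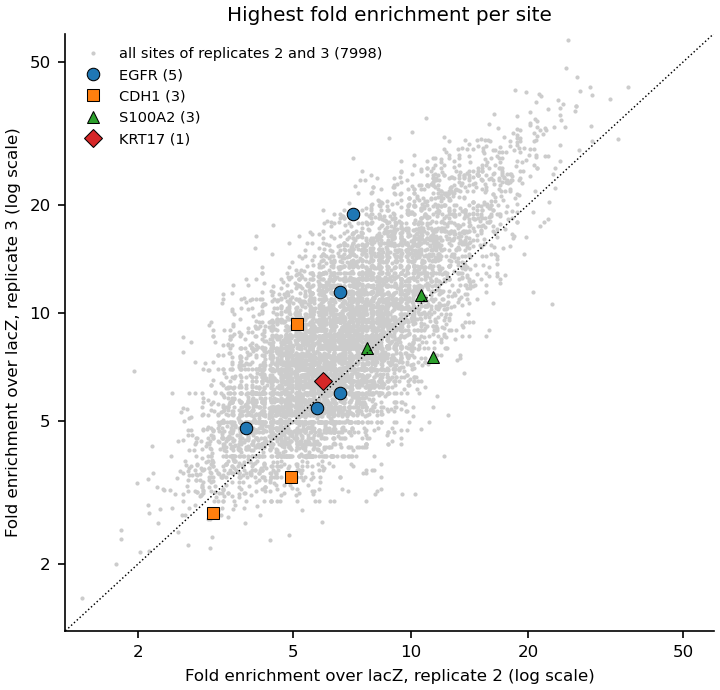
Highest fold enrichment over lacZ of each site in replicate 2 (x axis) and replicate 3 (y axis), both on log scales, for all 7998 sites with peaks in both (grey) and for the 12 sites of EGFR, CDH1, S100A2 and KRT17 (coloured). The dotted line marks equal values. The coloured points lie inside the grey cloud, with the lowest of CDH1 at 3.11 and 2.77 and the highest of EGFR at 7.13 and 18.88.

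Sequence features that played no part in choosing the genes were compared in the same way. An Alu alignment of at least 100 bp was present in 7 of the 12 sites (58.3%), beside 48.3% of all supported sites. By gene, these were all 3 sites of CDH1, 2 of S100A2, 2 of EGFR and 0 of KRT17. A tract of only purines or only pyrimidines of at least 15 nt, the kind of DNA in which an RNA can form a triplex, was present in 2 of 12 (16.7%), the wide site of S100A2 and that of KRT17, beside 40.6% of all supported sites. The sites had a median GC content of 49.4% and a median width of 366 bp, beside 47.6% and 462 bp. With 12 sites in 4 genes, several of them in the same intron, these shares are given as a description only. Over the whole windows, the loci had 0.270 Alu alignments per kb, the luminal genes 0.400 and all protein-coding genes 0.330.

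The genes without any peak are given next by class. The 16 basal genes without a peak were KRT5, KRT14, KRT15 and the stress keratin KRT6A, TP63, the integrin chains ITGA6 and ITGB4, the laminin chain LAMB3, the hemidesmosome proteins COL17A1 and DST, the desmosome proteins DSG3, DSC3 and PERP, TRIM29, the cell cycle regulator SFN, and the neurotrophin receptor NGFR. Their distance to the nearest supported site had a median of 143.4 kb and ran from 24.8 kb at ITGB4 to 2139.8 kb at DST. Some of these genes are long. DST spans 496844 bp, and 43.5% of 62 like genes on chromosome 6 had a supported site. TP63 spans 265888 bp, its like genes stood at 27.5% of 149, and its nearest site lay 72.5 kb away.

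The 9 luminal genes without a peak were the keratins KRT8, KRT18 and KRT19, the transcription factors FOXA1, HOXB13, GATA3 and ELF3, and the kallikreins KLK2 and KLK3. Their median distance to the nearest supported site was 145.5 kb, with 43.8 kb at KRT19 as the shortest and 578.2 kb at FOXA1 as the longest. The KRT8 window held 0.852 Alu alignments per kb, almost as many as that of CDH1, and had no peak. Just outside the 10 kb limit lay single sites of replicate 3, at 10.4 kb from KRT15 and 11.5 kb from HOXB13, whereas the KRT17 site at 5.5 kb was just inside it.

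Of the 8 other genes without a peak, NOTCH1 is the receptor and JAG1, JAG2 and DLL1 are ligands of the Notch pathway, by which neighbouring cells signal to each other. DLK2 is a related membrane protein. SOX2 is a transcription factor of stem cells, and ZEB1 and ZEB2 are repressors of CDH1. The nearest supported site lay 33.5 kb from NOTCH1, 54.3 kb from ZEB2 and 1373.7 kb from SOX2. ZEB1 is of a length and chromosome at which 40.7% of 140 genes had a supported site.

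Further genes of the same systems were counted likewise. A supported site was found at 1 of 8 other keratins (KRT16, through the site shared with KRT17), 1 of 8 other hemidesmosome and basement membrane genes (ITGB1), 2 of 12 desmosome and adherens junction genes (PKP3 and CTNNA1), 3 of 17 Notch genes (NOTCH2, MAML3 and HEY1) and 2 of 12 luminal and androgen-regulated genes (NDRG1 and FKBP5). The like genes of these lists stood at 8.85%, 18.5%, 16.9%, 17.8% and 13.1%, beside list shares of 12.5%, 12.5%, 16.7%, 17.6% and 16.7%. Of these genes, MAML3, a coactivator of Notch, had 2 sites with peaks of all 3 replicates, such as none of the 40 genes had. At the higher of them the fold enrichment was 10.31, 5.83 and 15.19 in replicates 1 to 3. PKP3, a desmosome plaque protein, had a site 29 bp from a TSS with 5.97 in replicate 2 and 12.41 in replicate 3. NDRG1, of the luminal and androgen-regulated list, had sites at 215, 74 and -761 bp from a TSS (negative upstream). Their fold enrichments were 8.29, 5.97 and 6.74 in replicate 2 and 13.49, 8.09 and 8.09 in replicate 3. Among marker genes of cell types, 0 of 3 basal, 0 of 4 luminal, 0 of 7 stromal and 0 of 5 neuroendocrine genes had a supported site. Their like genes stood at 15.5%, 9.78%, 14.7% and 6.40%, and lists this short cannot be told apart from them.

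At the MIR205HG locus (gene at chr1:209602162-209606193), replicates 1 and 2 had 0 peaks and replicate 3 had 3 in the gene or within 10 kb. Of these, 2 lay in the gene, with fold enrichments of 9.21 and 5.94, and the other, with 4.36, lay just beyond its end. The lacZ level was 2.46 and 2.35 at the former and 7.0 at the latter. Replicate 1 had 723 peaks on the 24 chromosomes, against 10769 in replicate 2 and 17064 in replicate 3, and none of them lay at the 40 loci. The basal gene LAMB3 lies 182 kb from MIR205HG and had no peak in any replicate.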

How the data were processed

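The data are the narrow peaks deposited for each of 3 MIR205HG-ChIRP replicates in RWPE-1 cells. The authors aligned single reads to hg19 and called peaks separately for each replicate with MACS2 against the 1 lacZ library. The submitters' notes list Bowtie 1.0.1 and MACS2 2.1.0, whereas the study's methods name Bowtie2. For each peak the authors deposited a fold enrichment, a p-value and a q-value as −log10, a display score and the summit offset. The fold enrichment is a ratio over the lacZ level set for the summit, which the values fit with 1 added to both terms. The peak names inside the lists carry other library numbers, and replicates are numbered here by the labels. Of the deposited peaks, 11, 25 and 47 lay off the 24 chromosomes and were left out. All 3 replicates share the lacZ library, so they are not independent in their background.

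Genes came from GENCODE release 44 mapped to GRCh37. The 40 genes and the further lists were chosen with earlier results of these data known, so no test was run on them and no independent support is drawn. Values are given for each supported site, and members without a peak are named. Peaks overlapping by 1 bp were merged into 19025 sites, of which 8020 were supported by at least 2 replicates. The deposited lists also hold peaks weaker than the MACS2 p-value of 1e-05 that the paper states. These 8020 sites are therefore not the paper's consensus peaks, which followed other rules. Like genes were all other protein-coding genes of the chromosome within 2 times the length. Reads at summits were solved from each peak's p-value and fold enrichment, fitting 1 depth ratio to a replicate (1.834, 1.395 and 1.004 to lacZ). This solved 100.0% of peaks, with a single solution for 90.5% or more in each replicate, and the library depths themselves are not in the peak lists. The lowest number of reads at a called summit was 12, 9 and 7 in replicates 1 to 3. Alu alignments were found with blastn 2.17.0 (E-value 1e-05). Shares have exact Clopper-Pearson intervals at 95% (scipy 1.17.1), and a count of 0 was read as at most 3. Counting was tested on simulated data and against bedtools 2.31.1: 200 of 200 planted genes were found, 0 of 600 others were called, and 20163 of 20163 real windows had equal counts. The work used Python 3.11.15, numpy 2.4.6, pandas 2.3.3 and matplotlib 3.10.9. Stricter peak thresholds, other windows and overlap rules, other classes and leaving out each replicate were tried as alternatives. Some sequences of these sites are not reported here.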

Additional observations from a re-analysis of the deposited data

How the results depend on the processing

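Of 58 recomputed main counts, 45 stayed within 1.5 times of the value given and 13 moved. Some of the 45 could not have moved, so their number does not measure robustness. Counts of 0 could not change under stricter cut-offs, and leaving out replicate 1 could not change sites made of replicates 2 and 3. A MACS2 q-value cut-off of 0.01 removed no peak at these loci. Of 3 recomputed shares of like genes, 2 stayed within 0.804 percentage points, the half-width of the exact interval, and 1 moved. These counts and shares carry no sign, so a change of direction could not occur and was not tested. With the gene body alone, 3 genes had a peak in replicate 2 and 2 had a supported site, 1 of them basal, because the sites of KRT17 and S100A2 lie outside the bodies. With 25 kb on either side, 11 genes had a peak in replicate 3 and 5 basal genes had a supported site. Without each replicate in turn, genes with a supported site ranged from 0 to 4, basal genes from 0 to 3 and genes with a proximal supported site from 0 to 1. The low ends came without replicate 2 or without replicate 3, since every supported site at these genes needs both. With the proximal region drawn from 1000 bp upstream to 100 bp downstream, 0 genes had a proximal supported site, and with canonical transcripts alone, an alternative chosen after seeing the data, 0 had one. Like genes that also lay within 2 percentage points of GC content had a supported site in 17.8% of cases, against 16.2% without that limit, and the cause was not tested. The luminal count was 0 under every alternative tried. With 0 luminal genes holding a peak of replicate 1 or 2, only the 25 kb window could have raised it. With an overlap of 50% of both peaks EGFR had 3 supported sites. No paired analysis was possible because no other group of libraries has a peak list. The reads at the summits, 10 to 47 at supported sites, limit what could be seen, and the absence of a peak is not the absence of binding.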
